A study of Mus musculus with 15 samples.

Results

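Leukemic mouse bone marrow cells of the GFI1-36N and GFI1-36S genotypes were compared after exposure to temozolomide (TMZ), a drug that methylates DNA. The comparison used the 6 TMZ libraries of the 15 in the study, 3 of each genotype, and 14246 of the 19035 genes in their shared table. Genes were kept when at least 3 of the 6 libraries reached a normalized count of 10. Both groups came from C57BL/6 mice in which the human GFI1 gene stands at the murine Gfi1 locus: the 36S group carried the common form (KI/KI in the labels) and the 36N group the 36N variant (36N/36N). In both, lineage-depleted marrow cells had received the MLL-AF9 oncogene with a GFP reporter on a retrovirus, were sorted for GFP and were transplanted into mice irradiated with 7 and 3 Gy. Leukemic marrow was then passed through mice given 3 Gy, and total marrow of the quaternary recipients was used. These cells were exposed to 50 µg/ml TMZ for 20 h before RNA was taken. Total normalized counts were 22254152 to 24264818 per library, and the read depth behind them is unknown. The labels do not say whether the 3 libraries of a group came from separate mice or cultures, so p-values measure only the spread between these libraries, which may be technical in part. All 36N titles carry the same MLL_AF9 number and the 36S titles carry 3 different ones, with no meaning given. The column names carry a different number for each of the 6 libraries, also unexplained. The corresponding untreated groups, 3 libraries of 36S and 3 of 36N, serve below as the measured background, and a group with low GFI1 (KD) was not used.

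GFI1 is a zinc finger repressor of transcription. It recruits the histone demethylase LSD1 and its CoREST partners to promoters and holds back monocytic genes while granulocytes form. The 36N variant is a human germline variant in the part of the protein that precedes the zinc fingers. MLL-AF9 is a fusion oncoprotein that keeps Hoxa9 and Meis1 active in myeloid progenitors. The lesion of TMZ that kills cells, O6-methylguanine, is removed by the enzyme MGMT. Left in place it is read by mismatch repair, and the breaks that follow are handled by homologous recombination, checkpoint kinases and p53.

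Transcript levels of 36N and 36S cells with TMZ did not differ past the threshold for any of the 14246 genes. Limma-trend called 0 genes at an adjusted p under 0.05 (0% of genes tested), and the lowest adjusted p was 0.9998. Unadjusted p-values under 0.05 numbered 191 (1.34%), below the 712 that 5% of the genes would make. The log2 difference, 36N minus 36S, had a median of 0.01 and a median size of 0.14, and its SE had a median of 0.27. Its 95% confidence interval stayed within a 2-fold difference in either direction for 9481 genes (66.6%). For the others it reached beyond, so a 2-fold difference stayed possible in them. The intervals are not adjusted for the number of genes, so they do not tell which differences the test could have called. A missed threshold does not show that the groups were alike. All 3 values of one genotype lay outside the range of the other for 678 genes (4.76%), 413 with 36N higher (2.90%) and 265 with 36N lower (1.86%). In the untreated libraries the same test called 599 of 13137 genes (4.56%), and the groups did not overlap for 26.9%. That count depended on the setting: it was 218 without 36S untreated 2, 294 without 36N untreated 5, 375 without 36N untreated 6, 390 without 36N untreated 4, 305 without the variance trend and 3304 with library weights.

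**Figure D1:**
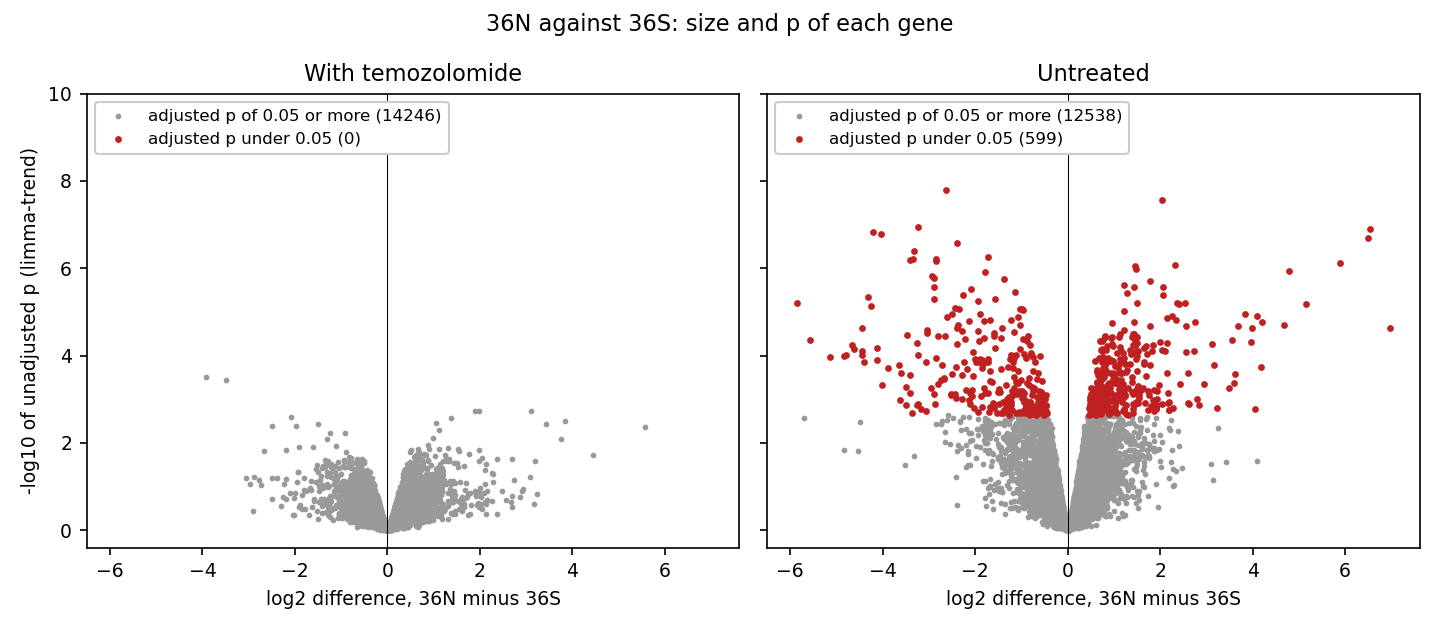
Size and p of every gene tested, 36N against 36S, with TMZ (left) and untreated (right). Each point is a gene, the x axis is the log2 difference and the y axis -log10 of the unadjusted limma-trend p; 0 points pass with TMZ and the 599 that pass untreated are red.

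Each TMZ library was most like a library of the other genotype. For each gene the deviation of a library from the mean of its 6 libraries was taken, and these deviations were correlated over all genes tested. With TMZ, 36S 1 was most like 36N 4 (r = 0.25), 36S 2 most like 36N 5 (r = 0.28) and 36S 3 most like 36N 6 (r = 0.12). The 6 pairs within a genotype had r from -0.39 to -0.16, and the other 6 pairs across genotype from -0.39 to -0.21. Genes that differed more than 2-fold made up 4.88 to 8.83% between the matched libraries and 10.6 to 16.6% between libraries of 1 genotype. Untreated libraries showed the opposite order, with r from 0.05 to 0.31 within a genotype and from -0.55 to -0.38 across. Deviations of 6 libraries sum to 0 for each gene, which makes r below 0 the usual value. Of the sum of squares over all genes with TMZ, 60.3% lay between the 3 matched pairs, 13.2% between genotypes and 26.4% in the rest. Untreated, 45.05% lay between genotypes. The shares with TMZ rest on 2, 1 and 2 degrees of freedom, in that order. The pairs were picked from these same libraries as the most alike, so a large share between them was partly built in. The labels name no source, day or batch that joins these pairs, and what joins them was not tested. Whether each library matches its genotype label was not checked, and every direction here rests on the labels.

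**Figure D2:**
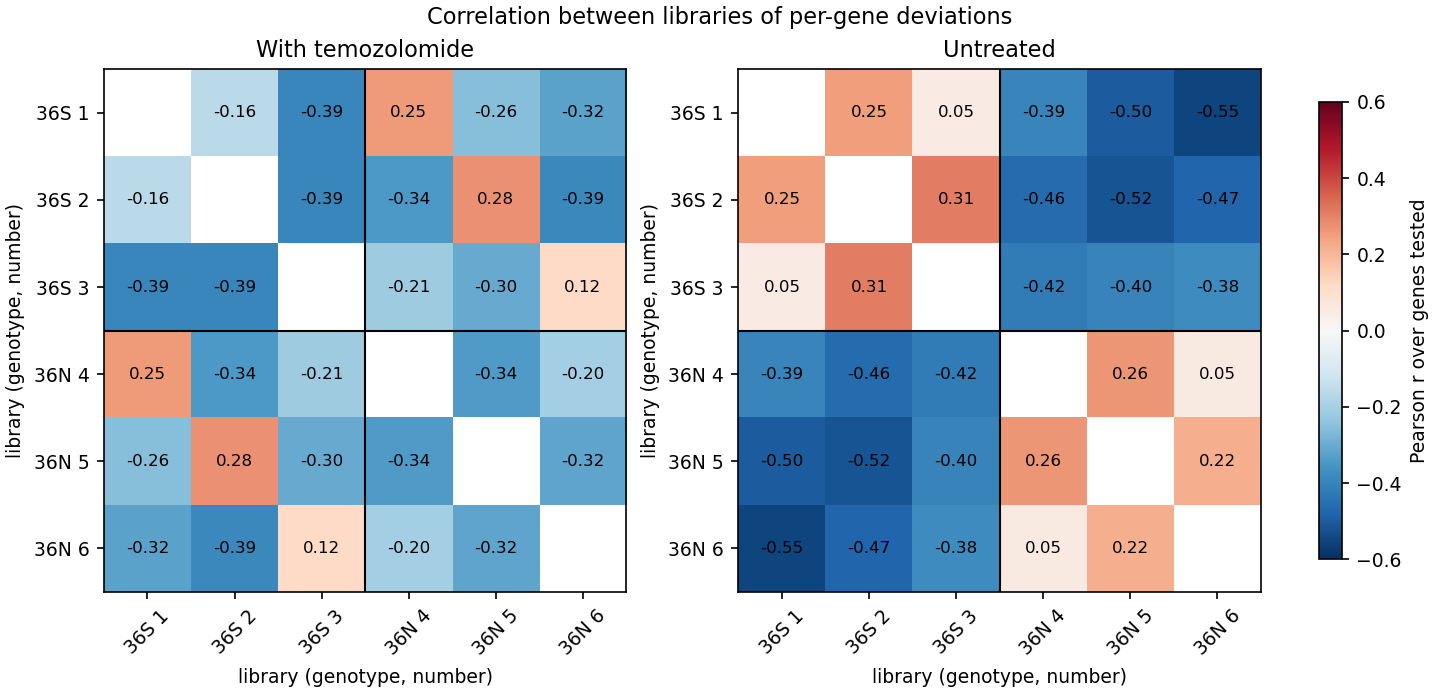
Pearson correlation between libraries of the per-gene deviation from the mean of 6 libraries, with TMZ (left) and untreated (right). With TMZ the positive values join a 36S to a 36N library (0.25, 0.28 and 0.12), while untreated they lie within each genotype (0.05 to 0.31).

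Reads of Y-linked genes followed the same pairs. Ddx3y, an RNA helicase gene of the Y chromosome, was listed at 0 in 36S 2 and 36N 5 and stood at 1646 to 2153 in the other 4 TMZ libraries. Eif2s3y was at 0 in 36S 2 and at 2.07 in 36N 5, against 1380.5 to 1838 in the other 4. Kdm5d and Uty were low there but not absent, at 229 and 165 in 36S 2 and at 170 and 140 in 36N 5. In the other 4 libraries they stood at 1182 to 1614 and at 490 to 720. Libraries of 1 group were thus not all repeats of the same RNA. In the separately normalized untreated table, Ddx3y was present in all 6 libraries, including those numbered 2 and 5, at 551 to 701. The same number in the titles therefore did not go with the same state of Ddx3y reads with and without TMZ. Leaving out both libraries without Ddx3y reads left the number of genes called at 0, with a lowest adjusted p of 0.058.

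All 6 TMZ libraries carried high levels of mast cell and basophil transcripts beside those of the myeloid leukemia. Cpa3, the mast cell carboxypeptidase gene, had normalized counts of 56149, 128878 and 119908 in 36S 1 to 3 and 61084, 124597 and 129596 in 36N 4 to 6. Mcpt8, a basophil protease gene, stood at 13854, 41813 and 73663 in 36S and at 16051, 37009 and 74069.5 in 36N. In both genes the lowest value of each genotype belonged to the first matched pair, and the groups overlapped. In the table that holds 36N cells with and without TMZ on one scale, Cpa3 stood at 28.5 to 436 without TMZ and at 42109.5 to 91172 with it. Gata2, which encodes a transcription factor of mast cells and progenitors, stood there at 248 to 466 and at 9977 to 16729. The mast cell and basophil list (24 genes, all tested) summed to 229779 to 529269 in 36S and 241381 to 599083 in 36N. Its members had a median difference of 0.14, and 19 of 24 were above 0. Tph1, an enzyme of serotonin synthesis, and the tryptase gene Tpsab1 had the lowest p-values, with log2 differences of 1.01 (SE 0.43) and 1.35 (SE 0.76). The part of mast cell and basophil transcripts in the result was not tested. In total marrow, fewer cells of a type and less RNA per cell cannot be told apart.

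Markers of the leukemia were present in every TMZ library. Hoxa9 had 1181, 967 and 663 normalized counts in 36S and 1257, 1044 and 725 in 36N. Meis1, its partner homeobox gene, had 1035, 1338 and 1444 against 1100.4, 1361 and 1877. Mpo, which encodes myeloperoxidase of the primary granules, had 128838, 60315 and 35413 against 63397, 46552 and 20912. T cell markers were absent: Cd3e was listed at 0 in all 6 libraries and Cd3g at 0 in 5 of 6. Igkc, an immunoglobulin light chain gene, stayed at or below 6.55. In the table of 36N cells on one scale, Igkc stood at 2325 to 4372 without TMZ and at 0 to 5.84 with it. Cd3e stood there at 34.7 to 67.95 and at 0. The leukemia markers were not at equal levels on that scale. Hoxa9 stood at 1591 to 3548 without TMZ and at 475 to 806 with it, and Meis1 at 1386 to 1953 and at 792 to 1379. Mpo overlapped, at 18197 to 23049.5 and at 16129 to 47914.

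**Figure D3:**
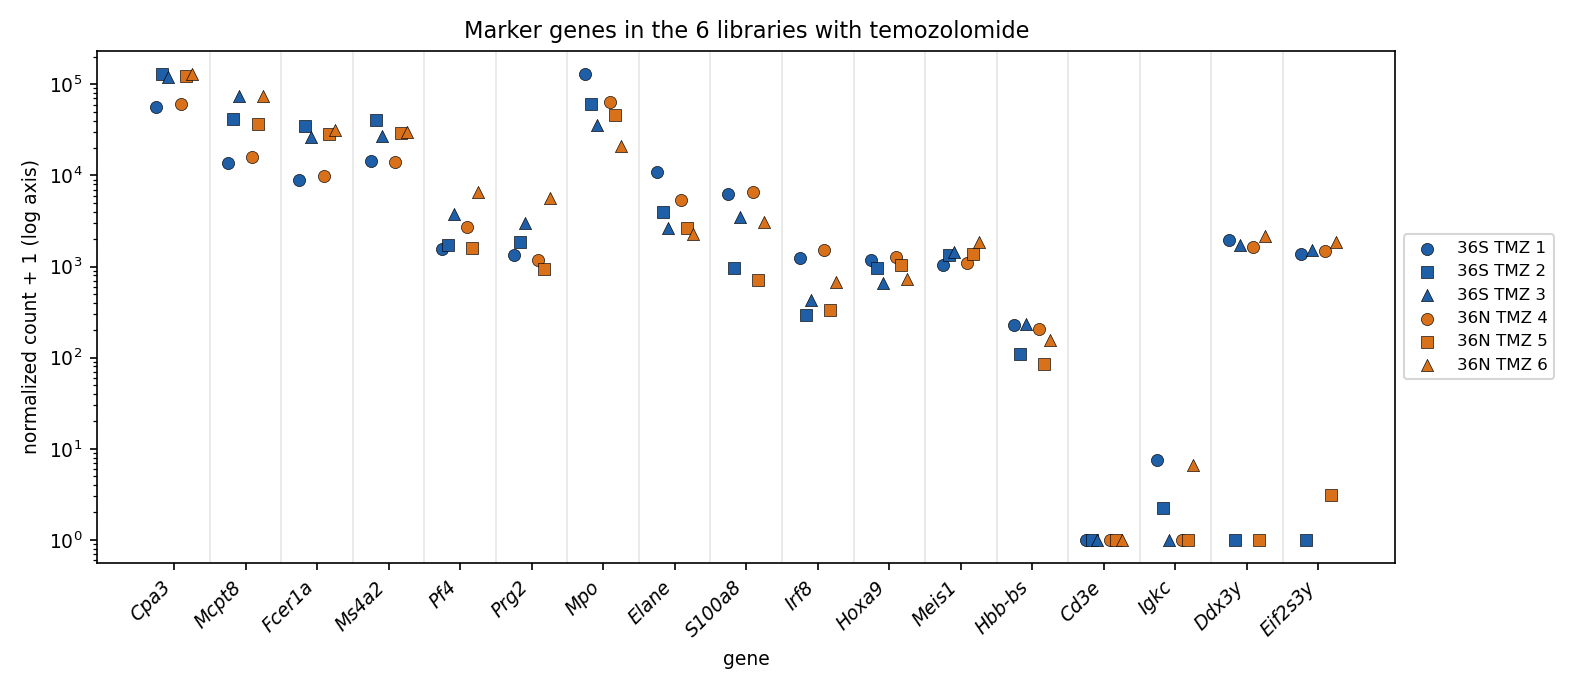
Normalized counts + 1 (log axis) of marker genes of mast cells and basophils, platelets, eosinophils, neutrophils, monocytes, the leukemia, erythroid, T and B cells, and of 2 Y-linked genes in the 6 TMZ libraries. Colour gives the genotype and shape the matched pair (circles 36S 1 and 36N 4, squares 36S 2 and 36N 5, triangles 36S 3 and 36N 6); values of like shape lie close for genes such as Cpa3 and Mcpt8, and Ddx3y is at 0 in both squares.

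The genes with the lowest p-values, 5 in each direction, are given as not passing, since each had an adjusted p of 0.9998. Gene models without a name were passed over. These genes were picked for their low p, so a lack of overlap between their groups is largely built in. Groups did not overlap for 4.76% of all genes tested. Among those higher in 36N, Pcdhgc4, a protocadherin of the gamma cluster, stood at 11.2, 3.77 and 23.4 in 36S and at 87.5, 59.6 and 168 in 36N. Its log2 difference was 3.11 (SE 0.67, adjusted p = 0.9998). Gamma protocadherins share their last exons, so reads may be split among them. Rgl1 (mm10 chromosome 1, 152516760 to 152766351), a guanine nucleotide exchange factor for Ral GTPases, stood at 189, 126 and 156 against 505, 264 and 490.2 (log2 difference 1.37, SE 0.32). The groups did not overlap in either gene. Bhlhe41, a repressor of the circadian clock, stood at 16.6 ± 1.81 in 36S and 67.0 ± 23.7 in 36N (SD, n = 3 each; log2 difference 1.89). Aqp3, a channel for water and glycerol, stood at 6.21 ± 1.499 and 27.1 ± 0.779 (log2 difference 1.98). Ctnnbip1, an inhibitor of β-catenin, stood at 78.5 ± 5.10 and 165 ± 25.04 (log2 difference 1.05).

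Among genes lower in 36N, Adam3 (chromosome 8, 24677225 to 24725852), a member of the ADAM family known from sperm, stood at 37.6, 38.8 and 32.7 in 36S and at 5.19, 2.29 and 0.793 in 36N. Its log2 difference was -3.49 (SE 0.58, adjusted p = 0.9998). In untreated cells Adam3 stood at 107 ± 30.9 in 36S and 55.7 ± 12.2 in 36N (log2 difference -0.90, adjusted p = 0.11). Pkhd1l1, a large receptor related to fibrocystin, stood at 98.3, 66.9 and 118 against 22.8, 11.4 and 35.1 (log2 difference -2.08, SE 0.47). Pklr (chromosome 3, 89136142 to 89146784), the pyruvate kinase of liver and red cells, stood at 84.8, 29.1 and 33.0 against 14.0, 3.96 and 5.68 (log2 difference -2.49, SE 0.62). Neither gene overlapped between genotypes. Odf3b stood at 111 ± 45.1 in 36S and 37.0 ± 5.63 in 36N (log2 difference -1.50). Pdyn, which encodes the opioid precursor prodynorphin, stood at 235 ± 64.2 and 99.1 ± 28.3 (log2 difference -1.24).

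**Figure D4:**
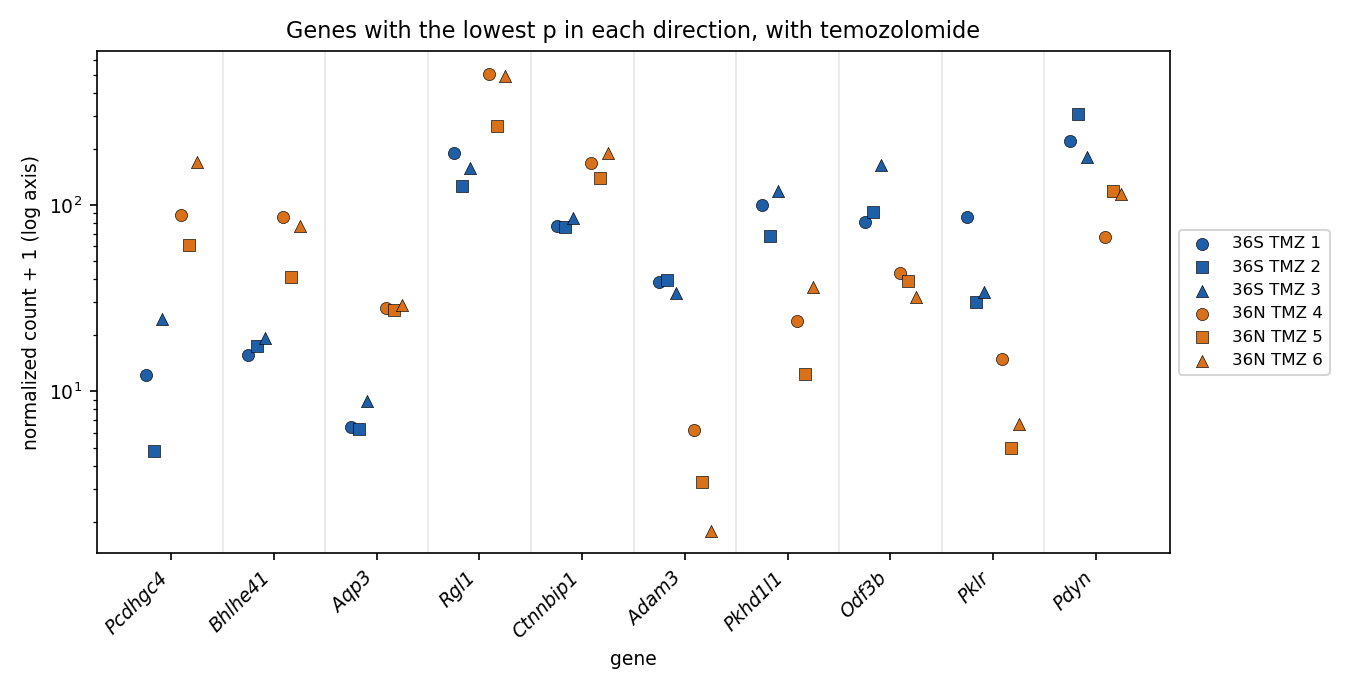
Normalized counts + 1 (log axis) of the 5 genes with the lowest p in each direction, by library. In all 10 the 3 blue points (36S) and the 3 orange points (36N) do not overlap, and 0 of the 10 pass the threshold after adjustment. The 10 were picked for their low p, so the lack of overlap is largely built in, beside 4.76% of all genes tested.

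A fit with the 3 matched pairs as a block was added after the pairs had been seen in the same libraries. It too called 0 genes, with a lowest adjusted p of 0.46, while unadjusted p-values under 0.05 numbered 781 (5.48%). The lowest p belonged to Stab1 (chromosome 14, 31139013 to 31168641), a scavenger receptor of macrophages. Its normalized counts were 1246 and 2906 in the first pair, 499 and 1217 in the second and 1999 and 4468 in the third, 36S first. The 36N to 36S ratio was thus 2.33, 2.44 and 2.24, although the groups overlapped. Mmp8, the collagenase of neutrophil granules, had 4571 and 9359, 1253 and 2407, and 2714 and 5445, which are ratios of 2.05, 1.92 and 2.01. Spint1, an inhibitor of serine proteases, had ratios of 2.22, 3.48 and 3.35. Beside Pkhd1l1, Adam3 and Pklr, the lower genes were Mdga1, a surface protein gene with ratios of 0.465, 0.566 and 0.581, and P4htm, a prolyl hydroxylase with ratios of 0.443, 0.389 and 0.415. The choice of pairs came from the data, so these ratios are a description.

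The study exposed cells to a DNA-damaging drug, so genes of DNA repair were examined. The values are transcript levels, and the damage itself was not measured here. Of 42 homologous recombination genes, 0 passed. Groups did not overlap for 0 of them, beside 4.76% of all genes tested. For 41 the 95% confidence interval lay within a 2-fold difference, beside 66.6% of all genes tested. Their median log2 difference was -0.02, beside 0.01 over all genes tested. Brca1 had normalized counts of 1450.2, 1567 and 819 in 36S and 1374, 1805 and 811 in 36N (log2 difference 0.04, interval from -0.78 to 0.86). It was lowest in the third matched pair in both genotypes. Brca2, a mediator of strand exchange, stood at 1434 ± 151 in 36S and 1376 ± 125 in 36N. Top3a and Rad50 had the lowest p-values of the list, with log2 differences of -0.24 and -0.18.

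In the Fanconi anaemia list 0 of 22 genes passed (median -0.03). The interval of each lay within 2-fold, beside 66.6% of all genes tested. Rev1 and Fanca had the lowest p-values at -0.33 and -0.15. Mgmt, whose protein takes the methyl group off O6-methylguanine, had 109, 137 and 201 normalized counts in 36S and 116, 144 and 117 in 36N. Its groups overlapped (log2 difference -0.20, interval from -0.90 to 0.49). None of the 23 genes of direct reversal and mismatch repair passed (median -0.05), and Pold2 (-0.29) and Rfc4 (-0.20) had the lowest p-values. Base excision repair (24 genes, median -0.02, led by Parp2 and Ung at -0.23 and -0.33), nucleotide excision repair (24 genes, median near 0, led by Ercc5 and Ercc2 at 0.28 and -0.19) and checkpoint kinases and mediators (23 genes, median -0.04, led by Cdc25c and Cdc25b at -0.22 and 0.14) had 0 called members each. Of 18 end joining genes 0 passed (median -0.09). Nhej1, which encodes the XLF factor, spread widely within 36S, at 551, 42.5 and 297, and stood at 59.9, 44.1 and 59.8 in 36N (log2 difference -1.81, SE 0.84). Shld1 of the shieldin complex had a log2 difference of 0.59.

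The p53 pathway list had 39 genes tested and 0 called, with a median of 0.10. Trp53 itself had 2261, 2864 and 2603 normalized counts in 36S and 2204, 2863 and 2715 in 36N (log2 difference 0.01, interval from -0.40 to 0.41). Cdkn1a, the p21 inhibitor of the cell cycle, had 3289, 3446 and 3232 against 3728, 4213 and 3840.2. All 36N values lay above all 36S values, and the log2 difference was 0.24 (SE 0.14, adjusted p = 0.9998). In 36N cells Cdkn1a stood at 719 to 819.5 without TMZ and at 2497 to 2847 with it, on one scale. Mdm2, the p53 ubiquitin ligase, stood at 2416 ± 519 in 36S and 2782 ± 360.2 in 36N. The groups did not overlap for 4 of the 39 genes, each with 36N higher (2.90% of all genes tested), among them the kinase gene Plk3 (0.39) and the growth factor gene Gdf15 (0.55). The BCL2 family (17 genes tested, median 0.13) had 0 calls, and the survival genes Bcl2a1b and Bcl2a1d, near-identical copies whose reads can be shared, stood at 0.82 and 0.79.

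Other stress lists also had 0 calls. Of 19 genes of oxidative stress and NRF2 targets, 17 had a log2 difference above 0, with a median of 0.35. Srxn1, the sulfiredoxin gene, had 721, 795 and 728 normalized counts in 36S and 864, 1371 and 1434 in 36N, without overlap (log2 difference 0.67, SE 0.23, adjusted p = 0.9998). Gclm, a subunit of the first enzyme of glutathione synthesis, had 1903, 2542 and 1935 against 2436, 3267 and 3369 (log2 difference 0.51, SE 0.20). The 36N value of each matched pair was higher in both genes, which for Srxn1 follows from the lack of overlap. It was higher by 1.20 to 1.97 times for Srxn1 and 1.28 to 1.74 times for Gclm. The integrated stress response list (24 genes, median 0.03) was led by Atf3 at 0.76 and Ddit3 at -0.78. Ddit3, which encodes CHOP, ranged from 232 to 1192 within 36S and from 271 to 437 in 36N. Heat shock chaperones (14 genes tested, median 0.11) were led by Hsph1 at 0.27 and Dnaja1 at 0.21.

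No cell cycle gene passed the test. Of 34 G1/S and replication genes 27 had log2 differences below 0 and the median was -0.09, with E2f2 at 0.23 and the polymerase gene Pole at -0.25. For all 33 G2/M and mitosis genes the interval lay within 2-fold, beside 66.6% of all genes tested. Their median was -0.03, with the condensin gene Ncapg at -0.21 and Cdc20 at -0.19. Myc had 2204, 2457 and 1175 normalized counts in 36S and 2009, 2380.3 and 951 in 36N (log2 difference -0.16, interval from -1.10 to 0.77). Its lowest value in each genotype was that of the third matched pair. In the MYC and nucleolar list (30 genes, median -0.09) Max, which encodes the partner of MYC, had the lowest p, at 1086 ± 214 in 36S and 1673 ± 337 in 36N without overlap (log2 difference 0.62, SE 0.22), followed by Ppan at -0.20.

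The leukemia program had 27 genes tested and 0 called (median -0.05). Hoxa9 differed by 0.11 (interval from -0.55 to 0.77) and Meis1 by 0.16 (interval from -0.39 to 0.72). Cdk6, a cyclin-dependent kinase gene downstream of MLL fusions, stood at 6988, 7269 and 4173 in 36S and 4329, 6491 and 2691 in 36N, lower in 36N in each matched pair (log2 difference -0.50). Mecom stood at 0.68. Receptors for growth factors and cytokines (24 genes, median 0.09) included Epor at -0.52. Gfi1 was not listed among the genes of the table shared by 36N and 36S with TMZ. Its level was thus not compared between the genotypes with TMZ, and the labels were not checked from it. In the table of 36N cells the row named Gfi1 stood at 367 to 565 without TMZ and at 504 to 723 with it, overlapping. These cells carry the human gene at the murine locus, and how far this mouse gene row measures it was not tested.

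Genes that GFI1 is known to repress are the nearest readout of the protein itself. Of 22 listed, 21 were tested and 0 passed, with a median of 0.15 and 16 above 0. Irf8 (chromosome 8, 120736358 to 120756694), a transcription factor of monocytes and dendritic cells, had 1238, 292 and 427 normalized counts in 36S and 1504, 332 and 682 in 36N. The spread between libraries was larger than the difference (log2 difference 0.38, interval from -1.15 to 1.91). Id2, an inhibitor of helix-loop-helix factors, had 1020.4, 1463 and 1373 against 1615, 1556 and 1748, without overlap (log2 difference 0.37, SE 0.18). Cdkn2b stood at 23.0 ± 0.647 in 36S and 45.6 ± 28.1 in 36N (log2 difference 0.80). Gfi1b, the paralog of GFI1, had 428, 1001 and 507 against 722, 662 and 419.7 (log2 difference -0.04). Partners of the repressor were tested as well: of 13 genes of its corepressor complex 0 passed (median -0.03), with Rcor2 at -0.40 and Zmym3 at -0.22.

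The core motif that GFI1 binds, AAATCA, was searched on both strands (TGATTT on the other) in the 250 bases before each start site, in RefSeq promoters of GRCm38.p6. It was found in 8.11% of the promoters of genes tested and 12.4% of all promoters. Among the repressed genes 13 had a promoter in that table, with 19 start sites, and 3 of the 19 held the motif. They belonged to Gfi1b (1 start) and Irf8 (2 starts). The window of Gfi1b (chr2:28621983-28622232, minus strand) and the first of Irf8 (chr8:120736108-120736357, plus strand) are shown because they hold the motif. No gene at all passed the threshold with TMZ, so the lack of a call for these genes says nothing about the motif. Capitals mark the motif, and a match describes letters, not binding.
Gfi1b: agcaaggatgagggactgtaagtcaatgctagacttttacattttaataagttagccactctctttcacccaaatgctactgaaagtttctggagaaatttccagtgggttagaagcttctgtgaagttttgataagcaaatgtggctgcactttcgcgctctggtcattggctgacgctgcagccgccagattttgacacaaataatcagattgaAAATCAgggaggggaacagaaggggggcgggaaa
Irf8: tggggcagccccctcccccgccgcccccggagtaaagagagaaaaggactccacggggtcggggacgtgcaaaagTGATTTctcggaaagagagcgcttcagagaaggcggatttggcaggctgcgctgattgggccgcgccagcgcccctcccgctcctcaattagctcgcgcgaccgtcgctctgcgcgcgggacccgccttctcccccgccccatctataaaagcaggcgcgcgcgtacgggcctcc

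Inflammatory genes stood mostly above 0 in 36N, with 0 calls. Of 32 type I interferon genes 30 had a log2 difference above 0, and the median was 0.37, beside 0.01 over all genes. Mx1, an antiviral GTPase gene, had 46.2, 84.0 and 32.1 normalized counts in 36S and 112, 159 and 108 in 36N, without overlap (log2 difference 1.30, SE 0.40, adjusted p = 0.9998). Ifi204 had 286, 219.7 and 254 against 428, 321 and 401, also without overlap (log2 difference 0.59). Groups did not overlap for 3 of the 32 genes, each with 36N higher, beside 2.90% of all genes tested. Of 24 cytokine and chemokine genes 21 stood above 0 (median 0.43), and Osm, the oncostatin M gene, had 1708, 1885 and 1307 against 2108, 2137 and 2112. The monocyte chemokine gene Ccl2 stood at 480.1 ± 371 in 36S and 739 ± 109.9 in 36N. Of 23 immediate early genes 20 stood above 0 (median 0.34), with Ier3 at 0.49 and Atf3 at 0.76. NF-kB subunits and feedback genes had a median of 0.09, with Traf1 at 0.85 and Relb at 0.39. Summed over each list, levels overlapped between genotypes: interferon genes reached 11524 to 14494 in 36S and 11376 to 20054 in 36N. Immediate early genes reached 11847 to 15459.9 and 12889 to 21493. Monocyte and macrophage genes stood in the same direction and are given next, and their part in these values was not tested.

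The monocyte and macrophage list had 30 genes tested and 0 called, 26 of them above 0, with a median of 0.27. Between libraries of a genotype the list median had an SD of 0.63, larger than that difference. Its summed level was 149120.0, 79564 and 111129 in 36S 1 to 3 and 175256, 73750.2 and 175135 in 36N 4 to 6. The second matched pair was the lowest in both genotypes, while the libraries of the third pair lay apart. Ctss, the lysosomal protease cathepsin S, had 3449, 2377 and 3566 normalized counts in 36S and 6721, 2709 and 8965 in 36N (log2 difference 0.83, SE 0.42). Fcgr1 stood at 0.59. The defining markers Csf1r, Ly6c2 and Adgre1 stood at 0.20, -0.13 and 0.40. The excess of Ctss was small in the second pair, where the summed list was lower in 36N.

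Neutrophil primary granule genes stood lower in 36N for 9 of 10 members, with a median of -0.49 and 0 calls. Ms4a3, a marker of granulocyte and monocyte progenitors, had 3808, 4635 and 4035 normalized counts in 36S and 3114, 3473 and 3323 in 36N, without overlap (log2 difference -0.33, SE 0.15). Prss57, a granule protease gene, had 1782, 1224 and 906 against 900.1, 685 and 889 (log2 difference -0.62, SE 0.27). Mpo stood at -0.72 and Elane, the neutrophil elastase gene, at -0.61, both lower in 36N in each matched pair. The summed level was 92479 to 188277 in 36S and 65149 to 105009 in 36N. Late neutrophil genes (20 tested, median 0.04) had their lowest summed level in the second pair in both genotypes. Their summed level was 65383 and 67499 in the first pair, 17559.8 and 15977 in the second, and 32510.0 and 55396 in the third. Itgb2l and Mmp8 had the lowest p-values, at -1.84 and 0.99. Of their defining markers, Ly6g stood at 0.51, Ngp at -1.06, Camp at -1.04 and Ltf at -1.52, each with overlapping groups. For each of these markers the 36N to 36S ratio was below 1 in the first and second pairs and above 1 in the third. It was 0.40, 0.12 and 2.32 for Ngp and 0.97, 0.66 and 4.52 for Ly6g.

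Erythroid genes had the lowest median, -0.52, with 3 of 17 tested genes above 0 and 0 calls. Rhd, a blood group gene, had 27.7, 25.1 and 20.6 normalized counts in 36S and 12.8, 5.31 and 12.01 in 36N, without overlap (log2 difference -1.28, SE 0.48). Epor stood at 367 ± 35.3 in 36S and 263 ± 76.7 in 36N. The summed level overlapped, at 12486 to 21543 and 11302 to 19416, and Hbb-bs and Klf1 stood at -0.37 and -0.44. Megakaryocyte and platelet genes (15 tested, median 0.04) were led by Gp9 at -0.66, without overlap. Itga2b, the integrin gene of platelets and mast cells, stood at 31499.8 to 53467 in 36S and 31672 to 58559.8 in 36N, and Pf4 at 0.49. Eosinophil genes (8 tested, median -0.10) were led by Siglecf at -0.44, without overlap, and Prg3 at -0.41.

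MHC class II genes, which present antigen to helper T cells, had 10 tested and 0 called with TMZ, with 8 of 10 below 0 and a median of -0.24. H2-Ab1, which encodes part of the presenting molecule, had 609, 767 and 593 normalized counts in 36S and 552, 492 and 557 in 36N, with all 36N values below all 36S values (log2 difference -0.29). H2-Ob, a chain of the modulator of peptide loading, stood at 521 ± 60.7 and 397 ± 87.0 (-0.41), overlapping. The lowest p of the list was that of Ctss, at 0.83, and the summed level was 6878 to 8738 in 36S and 5714 to 13673 in 36N. Dendritic cell genes (8 tested, median -0.08) were led by Zbtb46 at -1.27 and Itgax at 0.58. Few lymphoid genes reached the filter: 8 of 24 of T and NK cells (median 0.16, led by Nkg7 at -0.47 and Prf1 at -0.71) and 7 of 24 of B cells (median 0.15, led by Blnk at 0.80 and Cd79b at -0.37). Ncr1 stayed at or below 8.56 and Cd79a at or below 8.52. Stromal and endothelial genes (11 of 18 tested, median 0.05) were led by Vwf and Pdgfrb at 0.34 and -0.35, and Cxcl12 stayed at or below 6.10. Stem and progenitor genes (15 tested, median 0.18) were led by Mecom at 0.68 and Ly6a at 0.51.

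In metabolism, 21 of 24 genes of cholesterol synthesis and uptake stood below 0 in 36N, with a median of -0.17 and 0 calls. Tm7sf2, a sterol reductase gene, had 857, 699 and 797 normalized counts in 36S and 655, 517 and 600.0 in 36N, without overlap (log2 difference -0.41, SE 0.18). Dhcr7, which encodes the last enzyme of the pathway, stood at 2333 ± 669 and 1734 ± 474. Glycolysis and glucose transport (24 genes, median -0.04) were led by the transporter genes Slc2a3 at -0.43 and Slc2a1 at -0.32. Of 13 mitochondrially encoded genes 12 stood above 0 (median 0.23), led by mt-Nd3 at 0.33 and mt-Nd4 at 0.24. Their summed level was 1545680 to 1998750 in 36S and 1990190 to 2164330 in 36N. In all 40 lists together, 762 members were tested and 0 passed.

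The genes that separated the genotypes without TMZ were then followed into the TMZ libraries. The 2 comparisons share no library. Of 599 genes called untreated, 544 were tested with TMZ. Their size of difference had a median of 1.12 untreated and 0.20 with TMZ, beside 0.14 for all genes tested with TMZ. The sign was the same for 323 and opposite for 221. For 369 genes (67.8%) the 95% interval with TMZ did not contain the untreated difference, and groups did not overlap with TMZ for 37 (6.80%, beside 4.76% of all genes). Of the 38 that differed more than 8-fold untreated, 33 differed less than 2-fold with TMZ. These genes were picked for their untreated difference, which can overstate it, so the medians and all these counts are a description. The comparison with the interval also took the untreated difference as exact. A change in the difference was tested only by the interaction given next.

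A test of the change in the difference itself, the interaction of genotype and TMZ, called 41 of 12324 genes (0.333%), with a log2 difference that was larger with TMZ than without in 29 and smaller in 12, signs included. The TMZ libraries also differed from the untreated ones in mast cell, lymphoid and Y-linked transcripts, and the part of these in the result was not tested. All 41 had also been called untreated, and in all 41 the difference was smaller with TMZ, at most 0.75 in size against at least 0.86 untreated. With 0 genes called with TMZ, genes chosen by this test come from large untreated differences, so this is a description. Dip2c, Fam3b, Bhlhb9, Gm10020 and Gm49760 stayed under 10 in every library of 1 untreated group. They passed the untreated filter only through the other group, and the size of their untreated difference depends on the 1 added before the log. Without 36S untreated 2 the interaction called 10 genes, the fewest of any library left out. Dip2c (chromosome 13, 9276528 to 9668928), a gene of the disco-interacting family, had 161, 136 and 138 normalized counts in untreated 36S and 7.66, 6.45 and 9.72 in untreated 36N. With TMZ it had 265, 177 and 167 against 277, 269 and 267, so that the genotypes were apart untreated and lay close with TMZ (interaction 4.49 on the log2 scale, SE 0.34, adjusted p = 9.71e-05). In the table of 36N cells on one scale, Dip2c stood at 10.9 to 16.6 without TMZ and 172 to 175 with it. Ak3, the mitochondrial adenylate kinase gene, had 168, 154 and 167 against 53.2, 41.6 and 36.1 untreated, and 1066, 1067 and 1052 against 1224, 1130.1 and 1046 with TMZ (interaction 1.98, SE 0.24, adjusted p = 0.0039).

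Zxdb, a zinc finger gene on the X chromosome, had 1085, 1053 and 1195 in untreated 36S and 208, 177 and 153 in untreated 36N. With TMZ it had 237, 332 and 209 against 248, 298 and 287, overlapping. Fam3b, which encodes a secreted cytokine-like protein, stood at 47.4 to 67.5 against 0.932 to 2.54 untreated, and at 67.0 to 118 against 64.7 to 105 with TMZ. Zfp575 and the polarity gene Pard6b were also lower in untreated 36N and overlapped with TMZ. In the other direction, Bhlhb9 on the X chromosome stood at 1.70 to 3.71 in untreated 36S and 37.4 to 52.0 in untreated 36N, and at 172 to 363 and 204 to 341 with TMZ. Pitpnm2, a lipid transfer protein gene, stood at 25.98 to 39.9 and 137 to 184 untreated, and at 794 to 1086 and 772 to 1099.9 with TMZ. The pseudogenes Gm10020 and Gm49760, whose reads may come from other copies, stood near 0 in untreated 36S and higher in untreated 36N (interaction -6.91 and -3.90).

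Among genes chosen for the text after their values were seen, Ogg1, the glycosylase for oxidized guanine, was the only member of the base excision list called in the interaction. It had 386, 395 and 361 normalized counts in untreated 36S and 113, 117 and 153 in untreated 36N, and 266, 287 and 309 against 260.3, 284 and 354 with TMZ (interaction 1.63, SE 0.26, adjusted p = 0.024). In 36N cells on one scale Ogg1 stood at 162 to 221 without TMZ and at 179.9 to 250.1 with it. H2-Ab1 stood at 82.0 to 107 in untreated 36S and 175 to 222 in untreated 36N, while the interval with TMZ spanned 0 (interaction -1.34, adjusted p = 0.049). H2-Ob stood at 30.3 to 43.5 and 83.0 to 117 untreated (interaction -1.80, adjusted p = 0.036). Vill, the gene with the largest untreated difference among those called in the interaction, stood at 1.36 to 54.5 and 1118 to 1509 untreated, and at 511 to 746 and 670.3 to 1004 with TMZ (interaction -6.68, adjusted p = 0.030).

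For several myeloid genes a smaller difference with TMZ was not shown. Irf8 was called higher in untreated 36N (log2 difference 0.77, adjusted p = 0.0084) and stood at 0.38 with TMZ, with an interaction of -0.39 (adjusted p = 0.96). Mpo and Elane were called lower in untreated 36N (log2 differences of -1.48 and -1.25) and stood at -0.72 and -0.61 with TMZ, with interactions of 0.76 and 0.64 (adjusted p = 0.92 each). Id2 stood at 1.09 untreated and 0.37 with TMZ (interaction adjusted p = 0.51). Mmp8 stood at 0.86 untreated, where it was called (adjusted p = 0.025), and at 0.99 with TMZ. Mx1 stood at 1.39 untreated (adjusted p = 0.054) and 1.30 with TMZ, with an interaction of -0.09 (adjusted p = 0.99).

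**Figure D5:**
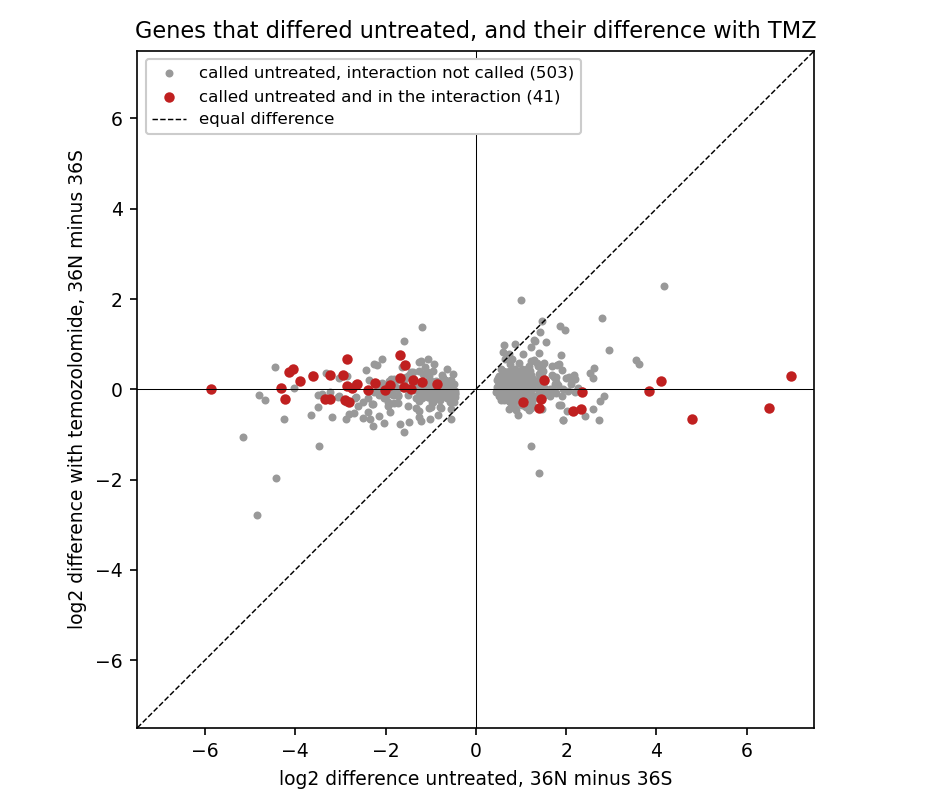
Log2 difference, 36N minus 36S, of the 544 genes called untreated and tested with TMZ: untreated on the x axis, with TMZ on the y axis. The 41 genes called in the interaction are red and lie within 0.75 of 0 on the y axis, and the dashed line marks an equal difference.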

How the data were processed

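Poly(A) RNA sequencing of the 6 TMZ libraries was deposited by the authors as a signal table of normalized counts per gene. Per the submitters' processing notes, Salmon and DESeq2 were named with the mm10 build, without versions or order. Whole reads could not be recovered (49.0 to 66.7% of values came out whole, tolerance 0.1), so no count test was run. Values were taken as log2(value + 1), which understates changes of low genes. Genes reaching 10 in 3 of 6 libraries were tested with limma-trend (limma 3.58.1, R 4.3.3), with Benjamini-Hochberg adjustment over all genes and a threshold of 0.05. The untreated table was fitted likewise, and the interaction compared both differences. The 2 tables were normalized separately, so levels are compared only within a table, and across them only the presence of Ddx3y reads. The same 36N TMZ libraries stand in a table with untreated 36N, which gave the values on one scale.

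The members and gene lists were chosen with earlier results of these data known. Named genes are fixed ones (Hoxa9, Meis1, Irf8, Gfi1, Myc, Mgmt, Trp53, Cdkn1a, Mdm2, Brca1), the genes past the threshold, or where fewer than 5 passed in a direction the 5 of lowest p, the 2 lowest p of each list, and the 10 lowest adjusted p of the interaction with a mean of at least 50 in a group. Marker genes of other cell types, Y-linked genes, Brca2, Ogg1, H2-Ab1, Vill, Mpo and Elane were chosen after their values were seen. Coordinates came from GENCODE M21 (18712 of 19035 symbols matched) and promoters from RefSeq. Alternatives changed the pseudocount, filter, scaling, variance model and libraries; the pair block and the fits on Y-linked reads were added after seeing the data. The method was tested on simulated data. Some named genes are not reported here. In all, 6 columns of other samples were not used.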

Additional observations from a re-analysis of the deposited data

Results flagged for a closer look

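The difference between genotypes itself differed between TMZ and untreated libraries for 41 genes in the limma-trend interaction test. The values that follow are the log2 difference with TMZ minus that without. Of the 10 with the lowest adjusted p, 6 had a value above 0. Dip2c stood at 4.49 (adjusted p = 9.71e-05), Fam3b at 4.34, Zfp575 at 3.995, Pard6b at 3.14, Zxdb at 2.76 and Ak3 at 1.98. The other 4 had a value below 0, with Gm10020 at -6.91, Gm49760 at -3.90, Bhlhb9 at -3.87 and Pitpnm2 at -2.41. In each of the 10 the genotypes were apart untreated and stood within 0.45 of each other with TMZ. Dip2c, Fam3b, Gm10020, Gm49760 and Bhlhb9 stayed under 10 in every library of 1 untreated group. The size of their untreated difference depends on the 1 added before the log. All TMZ libraries also carried high mast cell and basophil transcripts, and the part of those cells in these values was not tested.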

How the results depend on the processing

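The count of 0 genes with TMZ was the same under every alternative run except without 36S TMZ 3, where 1 gene, higher in 36N, was called (the pseudogene Gpx4-ps2, adjusted p = 0.019 by limma). Leaving out 1 library gave 0 to 1 calls in all, 0 to 1 higher and 0 lower. Unadjusted p-values under 0.05 numbered 114 to 781 across settings. Untreated calls numbered 305 without the variance trend (146 higher, 159 lower) and 3304 with library weights (1667 higher, 1637 lower). Leaving out 1 library gave 218 to 558 (123 to 348 higher, 95 to 210 lower), with 218 without 36S 2, 294 without 36N 5, 375 without 36N 6 and 390 without 36N 4. Interaction calls numbered 27 at a filter of 50 (18 above 0) and 139 with library weights (75 above and 64 below 0). Without both TMZ libraries lacking Ddx3y reads they numbered 16 (10 above and 6 below 0). Leaving out 1 library gave 10 to 34 (6 to 25 above 0, 4 to 13 below 0). With TMZ, Trp53 turned to -0.00774 under equal totals, -0.002005 under quantile normalization and -0.00941 with library weights. Brca1 turned to -0.0639 with library weights and to -0.046 without both libraries lacking Ddx3y reads. Leaving out 1 library, differences ran from -0.26 to 0.36 for Brca1, -2.83 to 3.69 for Eif2s3y, -0.12 to 0.33 for Hoxa9, -0.17 to 0.98 for Irf8, -0.042 to 0.34 for Meis1, -0.40 to 0.036 for Mgmt, -0.49 to 0.24 for Myc, -0.083 to 0.12 for Trp53 and -0.46 to 0.85 for Uty. List medians moved by less than the spread between libraries in 709 of their settings and by more in 11. The cause of these differences was not tested.

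With the replicate block on the library number, the interaction called 19 genes (11 above 0). Same-numbered libraries with and without TMZ had r from -0.056 to 0.17, 1 of 6 was over 0.1 and 2 of 6 correlated best with their own number, so the numbers were not taken as pairs. No paired analysis was possible from the labels between 36N and 36S because the groups share no library number; the block on pairs found in the data called 0 genes.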
